A study of Danio rerio with 20 samples.

Results

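The respiratory chain and ATP synthase genes of zebrafish leukemias were followed across 11 tumors. Genes were taken by symbol: those beginning with nduf, uqcr, atp5, mt-nd, mt-co, mt-cyb or mt-atp, those beginning with cox and a digit of the oxidase subunit series, the 4 succinate dehydrogenase subunits and cyc1. This gave 114 of the 32105 genes in the table, 101 encoded in the nucleus and 13 in mitochondrial DNA. Complex I supplied 38 nuclear and 7 mitochondrial genes, complex II 5 nuclear genes, complex III 9 and 1, complex IV 22 and 3, and ATP synthase (complex V) 18 and 2. The other 9 encode factors that assemble complex I or inhibit ATP synthase. Of the 114 genes, 112 passed the filter on low counts. The exceptions were NDUFA4L2 (ENSDARG00000103114), which held 2 counts over all high tumors and 1 over all low tumors, and ndufa4l2b, which held 3 and 0.

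The study asked how the transcriptomes of tumors with high and low self-renewal capacity, that is, the capacity to start a new leukemia, differ. Bulk polyA RNA of leukemia cells from CG1 strain fish was sequenced in 20 libraries. By the self-renewal label there were 8 high tumors with 14 libraries and 3 low tumors (9.2, 10.2 and 12.2) with 6 libraries. A line of the series text gives other numbers, 6 high tumors over and 5 low tumors under 1% leukemia-initiating cells. The transgene, the age of the fish and whether tumors came from separate fish were not given in the sources used here, and high tumors 8.3 and 8.4.1.1.1 share the first number of their titles.

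Library totals ran from 6015050 to 16951341 counts, and libraries of a tumor were summed. The groups also differed in lineage markers. The 14 T-cell genes together had 3753 to 4688 CPM (counts scaled to the normalized library size) in the high tumors, against 123.2, 357.2 and 1009 CPM in low tumors 9.2, 10.2 and 12.2. The 13 B-cell genes together had 5.75 to 18.9 CPM in the high tumors, against 1529, 893.0 and 297.6 CPM in the low ones. Self-renewal label and lineage therefore cannot be told apart here, and in bulk RNA neither can fewer cells of a type and less RNA per cell. Across all genes, 1473 of 16008 tested (9.2%) passed an adjusted p of 0.05, 641 (4.0%) higher and 832 (5.2%) lower in high tumors (edgeR quasi-likelihood test, Benjamini-Hochberg adjustment).

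The respiratory chain passes electrons from NADH (complex I) and succinate (complex II) through ubiquinone, complex III and cytochrome c to oxygen at complex IV, and ATP synthase uses the resulting proton gradient to make ATP. Complexes I, III, IV and V are built from subunits of both genomes, whereas complex II is wholly nuclear. Several small oxidase subunits exist as paralogues, which in mammals are used by different tissues.

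Few genes of the chain passed the test between high and low tumors. Of the 112 genes tested, 0 were called higher and 6 lower in high tumors (5.36%), against 4.0% and 5.2% of all genes. At an unadjusted p under 0.05, 6 members were higher and 16 lower, while 13.2% of all genes were higher and 12.4% lower. By DESeq2, 2 members were called higher and 9 lower, with 10.4% and 7.38% of all genes with an adjusted p called. In limma-voom 0 members were called higher and 8 lower, beside 4.01% and 5.94% of all genes. The median log2 fold change of the members was -0.11, against 0.04 for all genes. A total of 90 members (80.4%) lay within 0.5 of 0 on the log2 scale, against 49.5% of all genes, and the median standard error was 0.23 for members and 0.43 for all genes. The CPM ranges of the groups did not overlap for 12 of the 112 members tested, 1 higher and 11 lower in high tumors. The 11 included COX4I2, the COX6A1 row ENSDARG00000054588 and the SDHD row ENSDARG00000055712. These rows passed the filter through the low tumors, so they could only be lower in high tumors. Among all genes tested 11.9% had ranges that did not overlap, 6.01% with high tumors above and 5.84% with high tumors below.

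**Figure D1:**
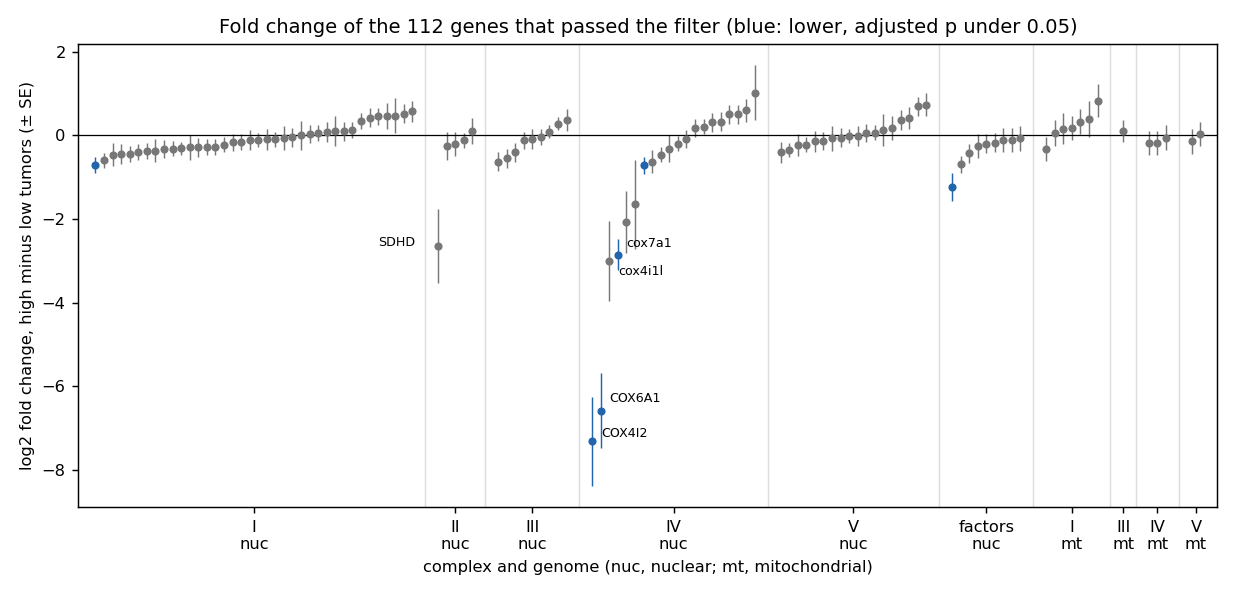
Log2 fold change, high minus low tumors, of the 112 genes that passed the filter, 1 point per gene with its standard error, sorted within each complex (8 high and 3 low tumors). Most points lie within 0.5 of 0; the 6 blue points passed the adjusted p of 0.05 and are all lower, the lowest being COX4I2 at -7.32 and the COX6A1 row ENSDARG00000054588 at -6.58. The point named SDHD is the row ENSDARG00000055712.

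The nuclear genes of complex I, which takes electrons from NADH, stayed close together. Of 38 genes, 1 was called lower (2.63%, against 5.2% of all genes), and the median log2 fold change was -0.12. On the log2 scale 34 lay within 0.5 of 0 (89.5%, against 49.5% of all genes). Their median standard error was also smaller, 0.21 against 0.43 for all genes. The called gene was ndufv3, an accessory subunit of the flavoprotein part that oxidises NADH. It had 16.4 to 24.2 CPM in high tumors (median 20.4), against 25.2, 37.2 and 39.1 CPM in low tumors 9.2, 10.2 and 12.2. All 8 high tumors were below all 3 low ones, 9.2 by a narrow margin. On the log2 scale ndufv3 differed by -0.72 ± 0.19 (SE; edgeR, adjusted p = 0.0393). Over all 11 fits that left out 1 tumor, its log2 fold change was between -0.90 and -0.57. The call was lost without any 1 tumor apart from 14.1.1.1, 8.3 and 9.2 (edgeR, p after adjustment 0.0512 to 0.184). It was also lost with libraries under a random tumor block (adjusted p = 0.266), with no filter (0.0744), with the first library only (0.0899) and with thinned counts (0.0728).

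NDUFV1, which binds NADH and the flavin, had the highest mean CPM of the nuclear complex I genes, at 143.3 to 270.6 CPM in high tumors (median 185.9), against 216.0, 208.0 and 223.7 CPM in low tumors. The low tumors lay inside the range of the high ones, and the log2 fold change was -0.17 ± 0.20 (edgeR, adjusted p = 0.638). NDUFA1 and NDUFB8, structural subunits of the membrane arm, also had ranges that did not overlap. NDUFA1 had 13.4 to 30.1 CPM in high tumors (median 23.9), against 32.0, 32.7 and 32.8 CPM in low tumors. NDUFB8 had 42.8 to 59.5 CPM in high tumors (median 57.5), against 67.6, 64.3 and 73.7 CPM in low tumors. Their log2 fold changes were -0.45 ± 0.24 and -0.31 ± 0.15, and neither passed the test (edgeR, adjusted p = 0.271 and 0.221). Tumor 13.1.1 had the lowest CPM of all 11 tumors in 14 of the 38 nuclear complex I genes.

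Complex II oxidises succinate and is shared with the tricarboxylic acid cycle. None of its 5 genes passed the test. SDHA, the flavoprotein that binds succinate, had 124.8 to 441.9 CPM in high tumors (median 227.5), against 307.3, 249.7 and 298.7 CPM in low tumors. SDHB, the iron-sulfur subunit, had 69.7 to 169.4 CPM in high tumors (median 80.1), against 106.0, 92.7 and 134.4 CPM in low tumors. The groups overlapped for both, and high tumor 8.3 gave the highest value of each.

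The membrane anchors were likewise not called. SDHC had 25.0 to 69.6 CPM in high tumors (median 33.6), against 26.8, 30.1 and 47.4 CPM in low tumors, again with tumor 8.3 highest. The SDHD row ENSDARG00000030139 had 32.8 to 53.7 CPM in high tumors (median 41.1), against 51.2, 42.4 and 44.4 CPM in low tumors. The log2 fold changes of SDHA, SDHB, SDHC and this SDHD row were -0.25, -0.21, 0.11 and -0.12 (edgeR, adjusted p 0.692 to 0.876).

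A further SDHD row, ENSDARG00000055712, was at the edge of detection. It had 0 to 0.318 CPM in high tumors (median 0.0858), against 0.607, 0.613 and 0.923 CPM in low tumors. With 19 counts over the high tumors and 51 over the low ones, it passed the filter through the low tumors and could be called only as lower. The ranges did not overlap, and the log2 fold change was -2.65 ± 0.89 (edgeR, adjusted p = 0.0853; limma-voom, adjusted p = 0.0268). Neither its direction nor the lack of overlap is read as a result. At most 12 counts fell in any single library.

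Of the 9 nuclear genes of complex III, 0 were called. UQCRFS1, the Rieske iron-sulfur protein, had the smallest p of them. It had 36.5 to 86.3 CPM in high tumors (median 58.7), against 96.5, 103.0 and 79.3 CPM in low tumors. Only high tumor 14.1.1.1, at 86.3 CPM, exceeded a low tumor, and the log2 fold change was -0.63 ± 0.23 (edgeR, adjusted p = 0.113). CYC1, the cytochrome c1 haem protein, had 126.8 to 166.0 CPM in high tumors (median 156.3), against 152.1, 140.0 and 131.5 CPM in low tumors. Its groups overlapped, with a log2 fold change of 0.09 ± 0.15 (edgeR, adjusted p = 0.760). UQCRH, the hinge protein, had 43.5 to 57.7 CPM in high tumors (median 55.7), against 96.4, 93.8 and 43.8 CPM in low tumors. Its groups overlapped through low tumor 12.2, and the log2 fold change of -0.55 ± 0.22 was not called (edgeR, adjusted p = 0.142).

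Of the 6 called members, 4 encode subunits of complex IV, cytochrome c oxidase. There 4 of 20 tested nuclear genes (20.0%) were called lower and 0 higher, against 5.2% and 4.0% of all genes. Among these 4, COX4I2 and the COX6A1 row ENSDARG00000054588 passed the filter through the low tumors, so they could be called only as lower. The call of cox6a1 was lost in several alternative fits. For these reasons no conclusion on complex IV as a whole is drawn from the share of 20.0%. All 4 belong to paralogue families. The lowest adjusted p belonged to cox7a1 (ENSDARG00000069464), whose mammalian counterpart is the heart and skeletal muscle form of subunit 7a. It had 1.78 to 8.42 CPM in high tumors (median 4.26), against 42.8, 22.4 and 34.5 CPM in low tumors 9.2, 10.2 and 12.2. The highest of the high tumors, 8.3, was well below the lowest of the low ones. Its log2 fold change was -2.86 ± 0.37 (edgeR, adjusted p = 0.000937), and it lay between -3.09 and -2.64 and kept its call in all 20 alternative fits.

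The paralogue with the general role in mammals, COX7A2, had 34.9 to 65.9 CPM in high tumors (median 54.7), against 44.4, 40.6 and 54.8 CPM in low tumors. COX7A2L, known in mammals for joining complexes III and IV in supercomplexes, had 37.7 to 60.6 CPM in high tumors (median 49.6), against 34.2, 46.0 and 24.6 CPM in low tumors. Groups overlapped for both, with log2 fold changes of 0.17 ± 0.22 and 0.50 ± 0.22 (edgeR, adjusted p = 0.684 and 0.183). The share of cox7a1 in the summed CPM of the 3 genes, not corrected for gene length, was 1.58 to 8.37% in high tumors (median 4.32%), against 35.3, 20.6 and 30.3% in low tumors. By the rule used, a family switches where 2 paralogues move in opposite directions and both are called, and partly where 1 is called. The 7a family met only the partial form, and the full form was met by 0 of the 10 families with at least 2 tested genes.

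The subunit 4 family also met the partial form. It did so through COX4I2, which passed the filter through the low tumors and could be called only as lower. The other part was the positive sign of COX4I1, which was not called. Of all 16008 genes tested, 8435 had a positive sign, so no switch is read from the partial form in either family. COX4I2 (ENSDARG00000022509), which in mammals is enriched in lung and responds to oxygen, had 0 to 0.237 CPM in high tumors (median 0.0248), against 24.6, 1.06 and 3.26 CPM in low tumors. The 8 high tumors held 9 counts in all, against 774 in the 3 low tumors. Both libraries of each low tumor held it, with 355 and 333 counts in tumor 9.2, 19 and 14 in 10.2, and 31 and 22 in 12.2. For COX4I2 the log2 fold change was -7.32 ± 1.07 (edgeR, adjusted p = 0.00176), called in all 20 alternative fits to the same tumors. Its size rested on single tumors: it was -5.17 without tumor 9.2 and -8.17 without 13.1.1. It also moved with the method, to -6.27 in limma-voom, -5.78 with libraries under a random tumor block and -8.23 with thinned counts.

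A second member of that family, cox4i1l (ENSDARG00000012388), split the high tumors. Tumors 8.4.1.1.1, 14.1.1.1, 8.3 and 2.1 had 1.80, 1.105, 0.794 and 1.21 CPM, while 4.3.1, 15.2, 13.1.1 and 7.2.1 had 19.5, 27.4, 8.77 and 21.4 CPM, against 34.5, 107.5 and 105.1 CPM in low tumors. All 8 high tumors were below the low ones. In tumors with 2 libraries both fell on the same side, while 8.4.1.1.1 and 14.1.1.1 had only 1 library each. For cox4i1l the log2 fold change was -3.00 ± 0.95, which missed the threshold in edgeR (adjusted p = 0.0720) and passed it in DESeq2 (-2.99, adjusted p = 0.0170) and limma-voom (-3.89, adjusted p = 0.0140).

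COX4I1, the general form in mammals, was the main member of the family in every tumor. It had 174.8 to 352.9 CPM in high tumors (median 245.2), against 178.6, 160.0 and 197.5 CPM in low tumors, with a log2 fold change of 0.50 ± 0.23 (edgeR, adjusted p = 0.210). Its share of the family's summed CPM was 89.8 to 99.7% in high tumors (median 97.8%), against 75.2, 59.6 and 64.6% in low tumors. These shares did not overlap between the groups.

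Both rows of the subunit 6a family were called lower, so by the rule used no switch was seen there. The row ENSDARG00000054588, which carries the symbol COX6A1, had 0 to 0.384 CPM in high tumors (median 0.315), against 10.8, 64.0 and 1.35 CPM in low tumors. It passed the filter through the low tumors, so it could be called only as lower. The ranges did not overlap, and the log2 fold change was -6.58 ± 0.89 (edgeR, adjusted p = 0.00113), called in all 20 alternative fits to the same tumors. Its size depended on tumor 10.2, without which it was -4.53, and on the method (-5.83 in limma-voom, -5.49 with libraries under a random tumor block). The share of this row in the family's summed CPM was 0 to 0.538% in high tumors (median 0.259%), against 6.26, 23.9 and 0.835% in low tumors. These shares did not overlap between the groups.

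The main row, cox6a1 (ENSDARG00000022438), had 70.1 to 131.7 CPM in high tumors (median 106.2), against 161.8, 203.6 and 160.8 CPM in low tumors. Again no high tumor reached a low one. Its log2 fold change was -0.72 ± 0.20 (edgeR, adjusted p = 0.0436). That call was lost without any 1 of tumors 14.1.1.1, 4.3.1, 15.2, 13.1.1, 7.2.1, 9.2, 10.2 or 12.2, where p after adjustment was 0.0527 to 0.207. It was lost as well with libraries under a random tumor block (adjusted p = 0.213), with no filter (0.0651), with the first library only (0.158) and with thinned counts (0.0539).

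**Figure D2:**
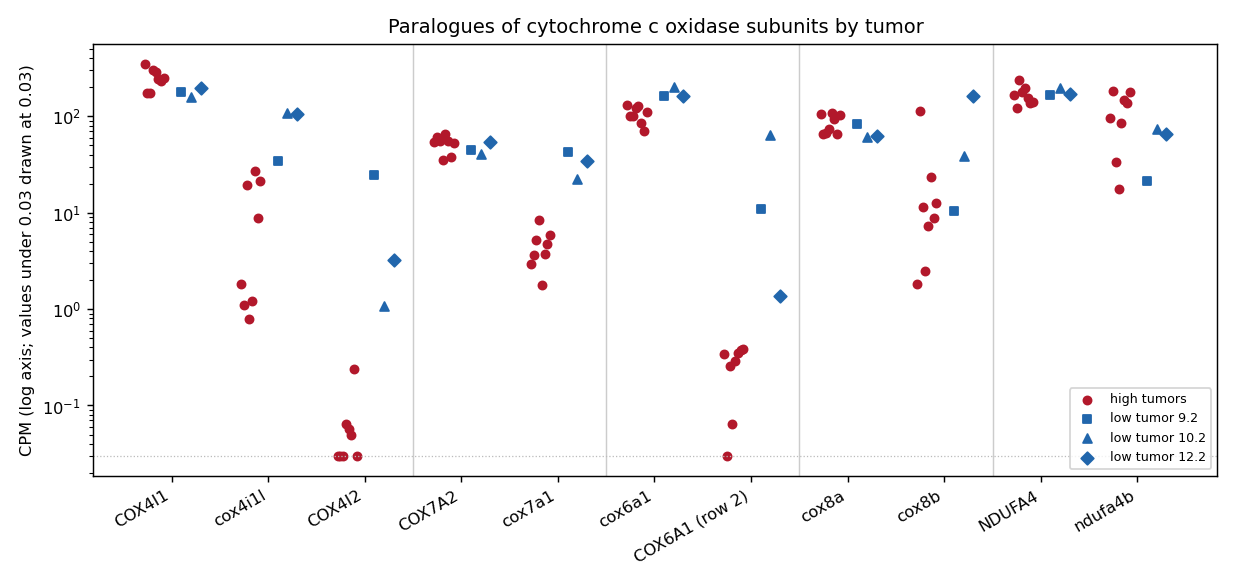
CPM (log axis) of cytochrome c oxidase paralogues in each tumor: red points, 8 high tumors; blue symbols, the 3 low tumors. Vertical lines part the families, COX6A1 (row 2) is the row ENSDARG00000054588, and values under 0.03 are drawn at 0.03. COX4I2, cox4i1l, cox7a1 and both COX6A1 rows lie lower in every high tumor, while COX4I1, COX7A2 and cox8a overlap between the groups.

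Muscle RNA was looked at because cox7a1 is a muscle form in mammals. The 18 muscle rows together had 9.71 to 45.4 CPM in high tumors (median 19.9), against 25.0, 27.1 and 16.5 CPM in low tumors, and overlapped between groups, with 1 row at 0 in every tumor. Most of that sum was mybpc2b, at means of 18.9 and 20.5 CPM in high and low tumors. The muscle creatine kinase ckma had 0 to 4.58 CPM in high tumors (median 0.0429), against 0.535, 0.0323 and 0.123 CPM in low tumors. Of the 12 B-cell rows tested, 10 were called lower in high tumors and 0 higher (83.3% called, against 9.2% of all genes). Some, such as PAX5, cd79b and cd37 with 18, 11 and 15 counts over the high tumors, passed the filter through the low tumors. Those could be called only as lower. Of the 8 progenitor rows tested, 3 were called lower and 0 higher (37.5% called, against 9.2% of all genes). Their log2 fold changes, 5 negative and 3 positive, ran from -7.70 to 1.63. The 10 progenitor rows together had 205.0 to 484.1 CPM in high tumors (median 346.2), against 1017, 959.1 and 536.5 CPM in low tumors. Summed levels of the erythroid, neutrophil, macrophage, thrombocyte and kidney epithelium lists overlapped between the groups. Single rows did differ. All 14 tested macrophage rows (median log2 fold change 2.24) and all 3 thrombocyte rows (2.26) were positive, with 0 called. In the erythroid, neutrophil and kidney epithelium lists 1 row each was called lower, of 5, 7 and 9 tested (20.0, 14.3 and 11.1%, against 9.2% of all genes called). The lowest kidney epithelium row had the same log2 fold change as the B-cell gene PAX5, -10.13. That list may therefore hold a B-cell gene, and its sum and call are not read as kidney epithelium alone. The part of lineage in the paralogue differences was not tested.

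The other oxidase families showed no call. In the subunit 5a family, cox5aa had 221.2 to 354.9 CPM in high tumors (median 267.7), against 199.8, 285.0 and 239.9 CPM in low tumors. COX5A (ENSDARG00000099663) had 45.8 to 133.8 CPM in high tumors (median 64.2), against 66.6, 59.8 and 138.1 CPM in low tumors. High tumor 8.4.1.1.1 and low tumor 12.2 stood above the rest for COX5A. In the 5b family, the COX5B row ENSDARG00000015978 had 187.5 to 281.9 CPM in high tumors (median 208.9), against 277.2, 327.5 and 286.0 CPM in low tumors, with 1 high tumor inside the low range and a log2 fold change of -0.46 ± 0.17 (edgeR, adjusted p = 0.109). The scarce COX5B row ENSDARG00000068738 had 0.0318 to 1.11 CPM in high tumors (median 0.278), against 0.714, 1.13 and 3.01 CPM in low tumors (log2 fold change -2.07 ± 0.75; edgeR, adjusted p = 0.111).

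The 6b genes leaned in opposite directions, neither passing the test. Subunit cox6b1 had 44.1 to 128.9 CPM in high tumors (median 105.9), against 129.3, 152.2 and 177.9 CPM in low tumors, with no overlap and a log2 fold change of -0.63 ± 0.27 (edgeR, adjusted p = 0.165). Its paralogue cox6b2, which in mammals is the testis form, had 98.2 to 285.4 CPM in high tumors (median 185.8), against 128.8, 131.1 and 118.8 CPM in low tumors (log2 fold change 0.60 ± 0.28; edgeR, adjusted p = 0.199). The high range contained all 3 low values.

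The subunit 8 and NDUFA4 families varied more among tumors than between groups. For cox8b, high tumor 14.1.1.1 had 112.8 CPM and low tumor 12.2 had 163.0 CPM, while the other high tumors had 1.80 to 23.5 CPM and low tumors 9.2 and 10.2 had 10.4 and 39.2 CPM. In tumors 14.1.1.1 and 12.2 cox8b made up 63.3% and 72.1% of the summed CPM of the pair, and in each of the others cox8a was the larger. The log2 fold change of cox8b was -1.65 ± 1.07 (edgeR, adjusted p = 0.362), -2.85 without 14.1.1.1 (adjusted p = 0.0496) and -0.10 without 12.2. Its partner cox8a had 65.5 to 108.8 CPM in high tumors (median 84.3), against 83.0, 61.4 and 63.0 CPM in low tumors.

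NDUFA4, a subunit first assigned to complex I and now to complex IV, had 123.0 to 240.9 CPM in high tumors (median 161.2), against 164.9, 199.0 and 171.5 CPM in low tumors. Its paralogue ndufa4b had 17.6 to 182.8 CPM in high tumors (median 116.7), against 21.5, 74.8 and 65.9 CPM in low tumors. High tumors 8.3 and 4.3.1, at 17.6 and 33.4 CPM, were with low tumor 9.2 at the bottom of that range. The single-row subunits cox6c and COX7C had log2 fold changes of -0.20 and 0.33 and overlapped between groups. Across the 8 high tumors the standard deviation of log2 CPM was 2.11 for cox4i1l, 1.84 for cox8b and 1.22 for ndufa4b, the only 3 of 112 members at 1 or above. Its median over members was 0.32, and over all genes tested 0.61.

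ATP synthase had 0 of 18 nuclear genes called, with a median log2 fold change of -0.02. The catalytic subunit ATP5F1B had 605.8 to 904.2 CPM in high tumors (median 833.6), against 940.3, 840.7 and 931.1 CPM in low tumors. The groups overlapped through tumor 10.2, and the log2 fold change was -0.22 ± 0.18 (edgeR, adjusted p = 0.498). The 3 genes of the c subunit, which forms the rotating membrane ring, included those with the largest positive changes of the complex. ATP5MC3 (ENSDARG00000017775) had 66.0 to 116.2 CPM in high tumors (median 92.2), against 65.5, 59.8 and 44.6 CPM in low tumors. It was the 1 member of 112 tested whose high tumors all lay above the low ones, against 6.01% of all genes. The margin was narrow, with 66.0 CPM in high tumor 8.3 and 65.5 CPM in low tumor 9.2.

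The log2 fold change of ATP5MC3 was 0.69 ± 0.23, past the threshold in DESeq2 (0.72, adjusted p = 0.0237) and not in edgeR (adjusted p = 0.0873). The second gene, atp5mc3b, had 373.0 to 893.9 CPM in high tumors (median 722.2), against 410.4, 466.7 and 323.7 CPM in low tumors, with high tumor 4.3.1 inside the low range. Its log2 fold change was 0.73 ± 0.27 (edgeR, adjusted p = 0.120; DESeq2, adjusted p = 0.0481). The third, atp5mc1, had 45.8 to 159.1 CPM in high tumors (median 91.8), against 96.7, 110.7 and 84.0 CPM in low tumors. The c subunit genes encode near-identical mature proteins, and the authors' counting may have split reads that fit more than 1 of them.

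All 9 assembly and inhibitory factors had negative log2 fold changes, as did 7573 of the 16008 genes tested. Of the 9, 1 was called lower (11.1%), against 5.2% of all genes. NDUFAF7, a methyltransferase needed for the assembly of complex I, had 5.58 to 21.0 CPM in high tumors (median 12.9), against 32.5, 30.4 and 24.3 CPM in low tumors. The groups did not overlap, and the log2 fold change was -1.24 ± 0.33 (edgeR, adjusted p = 0.0401). Over all 11 fits that left out 1 tumor, the log2 fold change was between -1.39 and -1.11. The call was lost without any 1 tumor apart from 8.3 and 2.1 (edgeR, adjusted p 0.0514 to 0.142), and with the first library only (adjusted p = 0.0591).

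The ATPase inhibitors, which block ATP synthase when it runs backwards, were not called. Inhibitor atp5if1a had 62.5 to 113.2 CPM in high tumors (median 75.0), against 106.6, 116.2 and 163.8 CPM in low tumors, with high tumor 15.2 inside the low range. The log2 fold change was -0.69 ± 0.20 (edgeR, adjusted p = 0.0515; DESeq2, adjusted p = 0.0225). Its paralogue atp5if1b had 55.4 to 120.6 CPM in high tumors (median 74.5), against 118.5, 79.3 and 112.9 CPM in low tumors, overlapping between groups. Its log2 fold change was -0.43 ± 0.23 (edgeR, adjusted p = 0.285). The other 6 factors, NDUFAF1, 2, 4, 5, 6 and 8, had log2 fold changes between -0.26 and -0.07.

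A score per complex, the mean log2 CPM of its tested genes in a tumor, summarised these values. For nuclear complex IV the scores were 4.28 to 5.08 in high tumors (median 4.82), against 5.61, 5.86 and 5.88 in low tumors, without overlap and with a difference of -1.0 in group means. That mean included COX4I2 and the COX6A1 row ENSDARG00000054588, which passed the filter through the low tumors. They held 9 and 41 counts over the high tumors, against 774 and 2310 over the low ones. It also included cox7a1 and cox4i1l, and the median log2 fold change of the complex IV genes was -0.26. Scores of the factors were 3.80 to 4.26 in high tumors (median 4.05), against 4.45, 4.4 and 4.43 in low tumors, also without overlap. Nuclear complex I, II, III and V scores overlapped between the groups, with differences of -0.09, -0.58, -0.12 and 0.05. The complex II mean included the SDHD row at the edge of detection, ENSDARG00000055712, with a log2 fold change of -2.65. That row also passed the filter through the low tumors. SDHA, SDHB, SDHC and the other SDHD row lay between -0.25 and 0.11. Over all 90 nuclear subunit genes the scores were 5.25 to 5.56 in high tumors (median 5.5), against 5.58, 5.83 and 5.84 in low tumors, without overlap and with a difference of -0.29.

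Some of these differences depended on which genes were averaged and how. With 1 paralogue per family, the one of highest mean CPM, a calculation added after these values were seen, the complex IV scores were 6.67 to 7.25 in high tumors (median 6.89), against 6.80, 6.93 and 6.92 in low tumors. The groups then overlapped, and the difference was 0.05. The same choice took the difference over all nuclear subunits to -0.08, with scores of 5.51 to 5.95 in high tumors (median 5.8), against 5.71, 5.95 and 5.96 in low tumors, which overlap. When the median of a complex's genes replaced their mean, the differences were -0.05 for complex II, -0.60 for complex III, -0.10 for complex IV and -0.81 for the factors. Such a score follows the gene in the middle of the CPM ranking of each tumor, so it does not give the typical change. The median log2 fold change of the genes was -0.21 for complex II, -0.09 for III, -0.26 for IV and -0.20 for the factors.

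**Figure D3:**
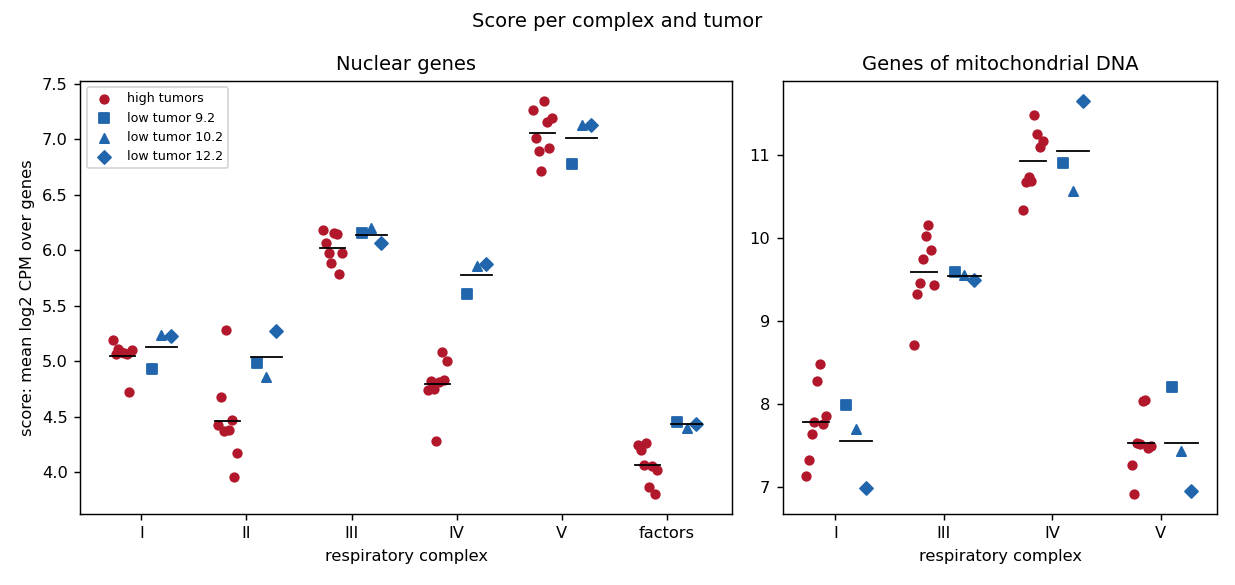
Score of each complex in each tumor, the mean log2 CPM of its tested genes, for nuclear genes (left panel) and genes of mitochondrial DNA (right panel). Red points are the 8 high tumors, blue symbols the 3 low tumors, and bars the group means; the groups separate for nuclear complex IV and the factors and overlap for the other complexes shown.

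The 13 protein-coding genes of mitochondrial DNA did not separate the groups, and 0 of them were called. Together they took 0.629 to 1.35% of all counts in high tumors (median 1.05%), against 1.13, 0.910 and 1.32% in low tumors. The 4 oxidase and cytochrome b genes had log2 fold changes near 0: MT-CO1 -0.06 ± 0.30, MT-CO2 -0.18 ± 0.28, MT-CO3 -0.18 ± 0.29 and MT-CYB 0.10 ± 0.27. MT-CO1, the catalytic subunit of complex IV, had 2149 to 4931 CPM in high tumors (median 3699), against 3354, 2393 and 5866 CPM in low tumors. Low tumors 10.2 and 12.2 stood near the bottom and at the top of all 11.

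The ATP synthase genes MT-ATP6 and mt-atp8 had log2 fold changes of -0.14 ± 0.30 and 0.03 ± 0.29. Complex I genes ranged from -0.32 ± 0.29 for MT-ND3 to 0.83 ± 0.40 for MT-ND6, with MT-ND1 at 0.39, MT-ND2 at 0.16, MT-ND4 at 0.17, mt-nd4l at 0.33 and MT-ND5 at 0.05. MT-ND6, the one subunit encoded on the opposite strand to the others in vertebrates, had 32.1 to 139.0 CPM in high tumors (median 91.6), against 51.1, 61.8 and 32.5 CPM in low tumors. High tumors 8.3 and 8.4.1.1.1 were the lowest of their group, and the gene did not pass the test (edgeR, adjusted p = 0.221). The strand setting of the counting is not given in the sources used here, so reads of MT-ND6 and of its opposite strand cannot be told apart. Apart from the strand setting, reads shared by the overlapping mt-atp8 and MT-ATP6, or mt-nd4l and MT-ND4, may be split or lost.

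Tumor 12.2 stood apart in the make-up of its mitochondrial transcripts. It had 0.117 counts of the 7 complex I genes per count of the 3 complex IV genes, under the 0.297 to 0.451 seen across the 8 high tumors and under the values of the other low tumors, 0.447 for 9.2 and 0.452 for 10.2. Its 2 libraries gave 0.124 and 0.108, so both showed the low ratio. It was the lowest of all 11 tumors in 5 of the 7 complex I genes and the highest in all 3 complex IV genes. Its libraries were also the least alike of any pair, with a median absolute difference of 0.59 in log2 CPM over the members, against 0.07 to 0.28 in the 8 other tumors with 2 libraries.

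**Figure D4:**
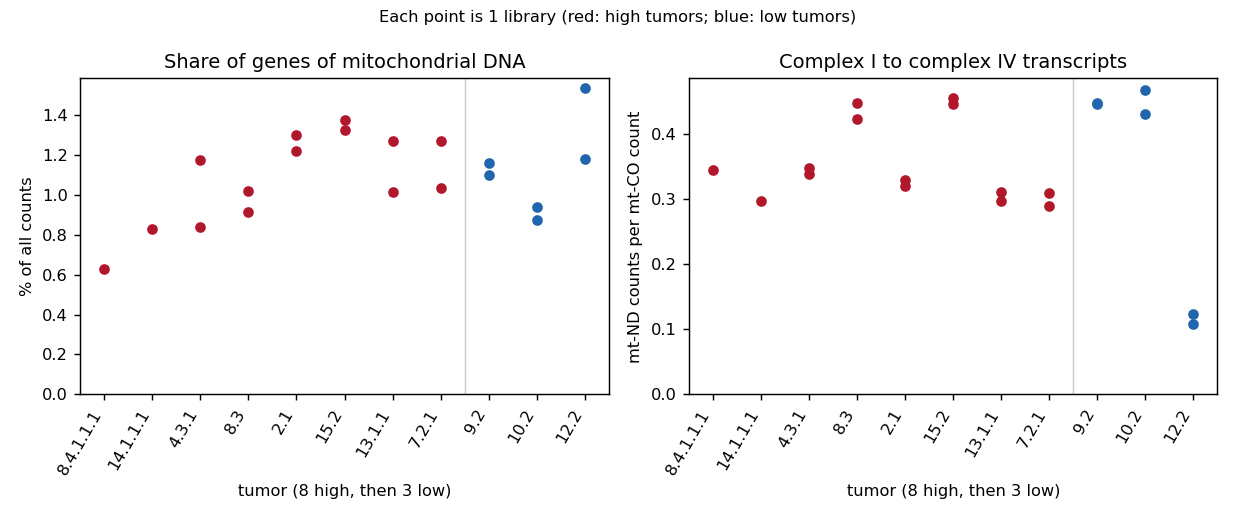
Left, percent of all counts that fell on the 13 genes of mitochondrial DNA; right, counts of the 7 mt-ND genes per count of the 3 mt-CO genes. Each point is 1 library, red for the 8 high tumors and blue for the 3 low ones; both libraries of tumor 12.2 lie at 0.124 and 0.108 in the right panel, under every other library.

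Genes that feed the chain were taken from lists of related pathways, chosen with earlier results of these data known. The share of each list called is given in parentheses, beside 9.2% of all genes. Of 27 tested genes of the tricarboxylic acid cycle and pyruvate dehydrogenase, 0 were higher and 3 lower in high tumors (11.1% called), with a median log2 fold change of 0.01. SUCLG2, the GTP-forming subunit of succinyl-CoA ligase, had 42.8 to 76.2 CPM in high tumors (median 49.3), against 204.4, 162.0 and 173.7 CPM in low tumors. No high tumor came near a low one. SUCLG2 changed by a log2 fold change of -1.76 ± 0.19 (edgeR, adjusted p = 0.000283) and kept its call in all 20 alternative fits.

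Fumarase, FH, had 32.1 to 49.2 CPM in high tumors (median 39.1), against 72.2, 81.0 and 66.1 CPM in low tumors, again without overlap. Its log2 fold change was -0.86 ± 0.16 (edgeR, adjusted p = 0.00776) and missed the threshold without tumor 10.2 (adjusted p = 0.0543) and with libraries under a random tumor block (adjusted p = 0.228). The 2-oxoglutarate dehydrogenase subunit ogdha had 137.0 to 348.8 CPM in high tumors (median 157.2), against 389.5, 390.6 and 334.0 CPM in low tumors. Tumor 8.3, at 348.8 CPM, lay inside the low range. For ogdha the log2 fold change was -1.01 ± 0.26 (edgeR, adjusted p = 0.0349), and the call was lost without any 1 tumor other than 8.3.

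Of 38 further assembly factors, 0 were higher and 3 lower (7.89%), with a median log2 fold change of -0.35. They were SDHAF3, which helps mature the iron-sulfur subunit of complex II (-1.12 ± 0.25; edgeR, adjusted p = 0.0181), and the oxidase assembly factors coa5 (-0.75 ± 0.20; adjusted p = 0.0343) and coa6 (-0.82 ± 0.21; adjusted p = 0.0355). All 3 had ranges that did not overlap. SDHAF3 lost its call without tumor 9.2 or 12.2 (adjusted p = 0.0689 and 0.0774), and coa5 and coa6 each lost theirs without any 1 tumor apart from 8.4.1.1.1, 14.1.1.1 and 8.3. With libraries under a random tumor block coa5 and coa6 were not called (adjusted p = 0.263 and 0.159), nor with no filter (0.0614 and 0.0673) or the first library only (0.130 and 0.0799). With thinned counts coa6 was not called (0.0635).

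Of 32 tested genes for carriers, cytochrome c and ubiquinone synthesis, 0 were higher and 2 lower (6.25%). COQ8A, needed for ubiquinone synthesis, has 2 rows, of which the scarce one, ENSDARG00000032426, was called. It had 0.943 to 4.03 CPM in high tumors (median 2.99), against 19.5, 12.7 and 12.4 CPM in low tumors. DHODH, which makes pyrimidines and hands electrons to ubiquinone, had 23.3 to 48.2 CPM in high tumors (median 34.3), against 62.3, 80.3 and 87.6 CPM in low tumors. The groups overlapped for neither of these rows. The log2 fold changes were -2.38 ± 0.38 and -1.16 ± 0.22 (edgeR, adjusted p = 0.00326 and 0.00718), and both kept their calls in all 20 alternative fits. The more abundant COQ8A row, ENSDARG00000020123, had 51.6 to 124.1 CPM in high tumors (median 84.1), against 109.6, 151.0 and 130.6 CPM in low tumors. Its groups overlapped, and the log2 fold change of -0.66 ± 0.25 was not called (edgeR, adjusted p = 0.128).

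Of 24 tested genes for mitochondrial biogenesis and DNA, 1 was higher and 0 lower (4.17%). This was NRF1, a transcription factor of nuclear genes for mitochondrial proteins. It had 74.8 to 178.6 CPM in high tumors (median 87.5), against 48.2, 56.9 and 34.2 CPM in low tumors, without overlap. The log2 fold change was 1.09 ± 0.29 (edgeR, adjusted p = 0.0401), and the call was lost without any 1 of tumors 4.3.1, 15.2, 13.1.1, 7.2.1, 9.2, 10.2 or 12.2.

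Of 14 tested hypoxia targets, 1 was called higher and 0 lower (7.14%). It was the hexokinase HK1, which had 88.6 to 270.8 CPM in high tumors (median 185.3), against 73.6, 40.8 and 38.5 CPM in low tumors. The ranges did not overlap, and the log2 fold change was 1.82 ± 0.37 (edgeR, adjusted p = 0.0116), with an adjusted p of 0.0700 without tumor 10.2. The list had a median log2 fold change of 0.79.

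**Figure D5:**
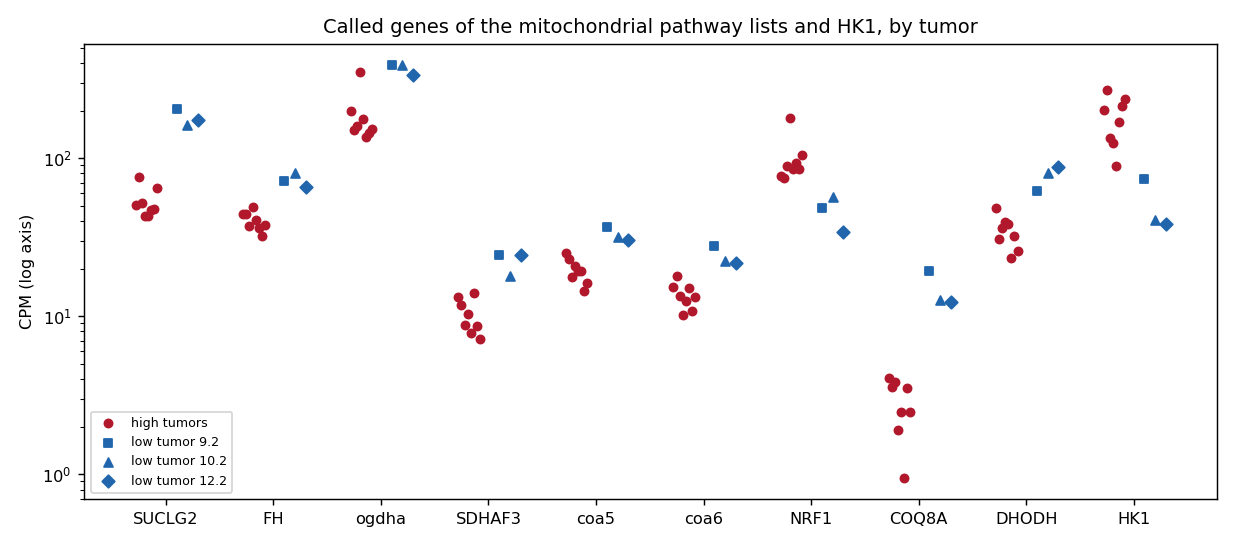
CPM (log axis) in each tumor of the 10 genes called among the pathway lists (COQ8A is the row ENSDARG00000032426): red points, 8 high tumors; blue symbols, the 3 low tumors. SUCLG2, FH, SDHAF3, coa5, coa6, COQ8A and DHODH are lower in every high tumor, NRF1 and HK1 higher in every high tumor, and ogdha overlaps through 1 high tumor at 348.8 CPM.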

How the data were processed

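PolyA RNA of 11 zebrafish tumors was sequenced in 20 libraries. Raw counts per Ensembl gene and library were deposited by the authors, without normalization. STAR, Picard, featureCounts and the GRCz10 build are named in the submitters' processing notes; their versions, the annotation release and the strand setting are not stated in them. Reads shared by near-identical paralogues may be split or lost.

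A gene name table gave symbols to 26269 identifiers (81.82%); of 259 entries in the marker and pathway lists, 22 were not matched, and older symbols came from a RefSeq gene table of assembly GRCz12tu. Members and lists were chosen with earlier results of these data known. Libraries of a tumor (2 in 9 tumors, 1 in 2) were summed, since the labels distinguish them only by a final letter. P-values thus reflect only how far these tumors spread.

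The main test was edgeR 4.0.16 under R 4.3.3: genes kept by filterByExpr (by group), TMM scaling, estimateDisp, glmQLFit and a two-sided glmQLFTest over all genes, with Benjamini-Hochberg adjustment at 0.05. Fold changes are high over low; standard errors come from the F statistic. Log2 CPM used a prior count of 2. Alternatives were DESeq2 1.42.0, limma-voom (limma 3.58.1), other scaling factors and filters, the first library only, libraries with tumor as a random block, thinned counts, an adjusted p of 0.01, and leaving out each of 11 tumors. The fits were tested on simulated data. Named were all called members, mitochondrially encoded members, succinate dehydrogenase subunits, paralogue families, the member of smallest p and of highest mean CPM in each class, and up to 4 called genes of each pathway list; NDUFA1, NDUFB8, UQCRH, the second COQ8A row and the tumors singled out were chosen after their values were seen. Tables and plots used Python 3.11.15, pandas 2.3.3 and matplotlib 3.10.9.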

Additional observations from a re-analysis of the deposited data

Results flagged for a closer look

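Among 60 values examined in the 8 high tumors, 4 had a tumor far from the other 7, by a test that flags about 1 in 20 groups by chance. COX5A (ENSDARG00000099663), a subunit of cytochrome c oxidase, stood at 7.07 log2 CPM in tumor 8.4.1.1.1, above 5.52 to 6.19 in the others. The oxidase subunit cox6b1 stood at 5.46 log2 CPM in tumor 8.3, below 6.28 to 7.01 in the others. The nuclear complex I score was 4.72 in tumor 13.1.1, below 5.06 to 5.19, and this tumor was the lowest of all 11 in 25 of the 112 members. The nuclear complex IV score was 4.28 in tumor 8.3, below 4.74 to 5.08. With 1 paralogue per family tumor 8.3 scored 6.83, inside the range of 6.67 to 7.25 of the high tumors.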

How the results depend on the processing

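Without single tumors, 3 to 8 members were called lower and 0 to 1 higher; over all genes 599 to 1789 were called, 196 to 745 higher and 403 to 1044 lower, with the lowest counts without tumor 10.2. At an adjusted p of 0.01, 3 members were called lower and 477 genes were called (159 higher, 318 lower). DESeq2 called 2 members higher and 2828 genes, 1657 of them higher. With the first library only, 3 members were lower, and the score differences were -0.08 for complex II and -0.15 for all nuclear genes. With medians in place of means, the differences were -0.05 for complex II, -0.60 for III, -0.10 for IV, -0.81 for the factors and -0.11 for all nuclear genes. With 1 paralogue per family they were 0.05 for complex IV and -0.08 for all nuclear genes, an alternative chosen after seeing the data. A median score follows the middle-ranked gene of each tumor, and the median log2 fold change was -0.09 for complex III and -0.20 for the factors. Beyond that and the fewer genes or libraries used, the cause of these shifts was not tested. Log2 fold changes that changed sign were all of genes not called. With the first library only they were 0.03 for MT-CO1, MT-CO2 and atp5mc1 and 0.02 for NDUFA4. Without single tumors they ran from -0.08 to 0.42 for MT-ND2, -0.02 to 0.46 for MT-ND4, -0.21 to 0.36 for MT-ND5, -0.32 to 0.41 for MT-CO1, -0.39 to 0.23 for MT-CO2, -0.36 to 0.16 for MT-CO3, -0.38 to 0.35 for MT-ATP6, -0.14 to 0.37 for mt-atp8, -0.08 to 0.43 for SDHC, -0.54 to 0.20 for COX5A and -0.22 to 0.04 for atp5mc1. Leaving out tumor 12.2 turned the sign in 8 of these 11 genes.

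The median of all genes lay at 0.04, and at 0.10 without tumor 12.2 and 0.13 with no filter. Over the 20 alternatives, all on the same tumors, cox7a1 kept its call throughout. So did COX4I2 and COX6A1 (ENSDARG00000054588), which passed the filter through the low tumors and could be called only as lower. For COX4I2 and COX6A1 the kept calls are therefore not read as support. No paired analysis was possible because the replicate numbers only count the libraries within each group. They do not match a high tumor with a low one. With 3 low tumors and scarce counts, the sizes of the COX4I2 and COX6A1 changes are imprecise.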
